A study of Mus musculus with 18 samples.

Results

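The mRNAs of 10 heat shock and endoplasmic reticulum (ER) chaperone genes were followed through polysome gradients of wild-type and Ddx6 knockout mouse embryonic stem cells. The rule lists them by name as HSP70, HSP90 and HSP60 family genes and uses no measured value. The list was nevertheless chosen with earlier results of these data known. The symbols found 10 of the 51467 genes in the count table. They were Hspa8, Hspa4, Hsph1, Hsp90aa1 and Hsp90ab1 of the cytosol, Hspa5 and Hsp90b1 of the ER, and Hspa9, Hspd1 and Hspe1 of the mitochondrion.

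The cells were V6.5 embryonic stem cells (ESCs), a mouse line, kept in serum medium that contained LIF and both 2i inhibitors. The wild-type (WT) cells are labelled only as WT, with no engineered change named. The Ddx6 KO cells carried a CRISPR-Cas9 knockout of Ddx6, which encodes an RNA helicase of translational repression and mRNA decay. Both genotypes received 100 µg/ml cycloheximide for 2 min, which arrests ribosomes on mRNA, before lysis. RNA was sequenced from 3 parts of each gradient, the monosome, the low polysome with 2 to 4 ribosomes per mRNA, and the high polysome with at least 4. Each genotype had 3 gradients, for 18 libraries in 6 groups. The KO group holds 2 clones, with clone 1 in gradient 1 only and clone 2 in gradients 2 and 3. The labels do not state that the gradients came from separate cultures. The limma p-values for fractions measure the spread between libraries of a group, with fractions of one gradient entered as separate libraries. Those for levels over all fractions measure the spread between gradient means. The comparisons address which mRNAs change their ribosome load when DDX6 is lost.

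Chaperones bind unfolded proteins and help them to fold, to cross membranes or to be degraded. HSP70 proteins hold short stretches of an unfolded chain in a cycle driven by ATP, J-domain proteins bring them their clients, and exchange factors release the ADP. HSP90 proteins act later, on nearly folded clients such as kinases and receptors, with the help of co-chaperones. The HSP60 and HSP10 proteins form a closed chamber in the mitochondrial matrix. Transcription of the cytosolic and mitochondrial genes is raised by heat shock factors at heat shock elements, and that of the ER genes by the unfolded protein response at ER stress elements. In a polysome gradient an mRNA sediments further the more ribosomes it carries, and a longer coding sequence has room for more of them.

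The promoters of the genes with a window in the RefSeq table (GRCm38.p6, 250 bases before to 50 after the start) were searched for both elements. One is named above for the ER genes and the other for the cytosolic and mitochondrial genes. A window was given for 6 of the 10 genes. The ER stress element was searched on both strands as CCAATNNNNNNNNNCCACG and was present in 0.119% of 32851 windows. It was found in the windows of Hspa5 and Hsp90b1, the ER members, and in none of the other 4. The matches follow with the fixed letters in capitals, 5′ to 3′ on the strand of the match.
Hspa5, chr2:34772025-34772043, plus strand: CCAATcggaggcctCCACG
Hsp90b1, chr10:86705638-86705656, minus strand: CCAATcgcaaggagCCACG
Hsp90b1, chr10:86705533-86705551, plus strand: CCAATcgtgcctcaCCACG

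The heat shock element was searched on both strands as GAANNTTCNNGAA and was present in 0.603% of the windows. It was found in the windows of Hsph1, Hspd1 and Hspe1. The window of Hspa4 held neither element. Hspd1 (chr1:55077835-55088243, minus strand) and Hspe1 (chr1:55088132-55091307, plus strand) lie head to head and overlap at their 5′ ends, so their windows share the same pair of overlapping matches, shown with the fixed letters in capitals.
Hspd1 and Hspe1, chr1:55088064-55088076, plus strand: GAAccTTCcgGAA
Hspd1 and Hspe1, chr1:55088059-55088071, minus strand: GAAggTTCtaGAA
A match is a description of the letters and not evidence that a factor bound there. The counts were made by strand, so reads of the 2 overlapping genes were kept apart.

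DDX6 is also an effector of miRNAs, so the 3′ UTRs of the members were searched for sites of a miRNA seed that is abundant in ESCs. The mature sequences come from RefSeq (GRCm38.p6), with the seed (bases 2 to 8) in capitals.
mmu-miR-294-3p: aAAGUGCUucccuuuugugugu
mmu-miR-302d-3p: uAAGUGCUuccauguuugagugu
None of the 10 annotated 3′ UTRs held the 6-base site GCACTT, which 30.4% of 11625 tested genes with a 3′ UTR held, and so none held the 8-base site AGCACTTA, which 3.2% held. The members' 3′ UTRs ran from 83 nt for Hspa8 to 1798 nt for Hspa4, and the shares over all genes were not matched for length. The search says only that these letters are not in the annotated 3′ UTRs.

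The libraries held 2543617 to 11474550 gene counts, fewest in WT monosome of gradient 1. The Ddx6 mRNA level was 143 to 212 CPM (counts per 1000000 counts of a library, TMM-scaled) in the WT libraries. It was 55.3 to 82.7 CPM in the libraries of KO clone 1 and 9.68 to 26.7 CPM in those of clone 2, so the clones did not overlap. By the study's account one clone carries an insertion and the other a large deletion, and 3′ end counts do not read either edit, so these levels do not check the edit itself. The 6 ESC markers were all present, with summed levels of 1404 to 2122 CPM in WT and 1491 to 2344 CPM in KO libraries. Pou5f1 was the lowest of the 6, with group means of 24.9 to 48.5 CPM. The summed level of the 3 epiblast-like cell markers was 35.8 to 80.3 CPM in WT and 11.7 to 26.2 CPM in KO libraries, with Fgf5 at 0 throughout. Those of 5 fibroblast and feeder markers reached 11 CPM, with Col3a1 at 0, those of 4 endoderm markers reached 8.91 CPM, and those of 4 neural and mesoderm markers, nearly all of it Sox1, were 27.4 to 45.4 CPM in WT and 26 to 69.7 CPM in KO libraries. The part of the epiblast-like markers in the results below was not tested.

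All 10 members passed the filter on low counts, with the lowest level of any member in any library at 46.2 CPM. Together they made up 0.365% to 0.953% of the counts of a library. Hsp90ab1 alone held 40.6% to 76.5% of the members' counts and ranked 6 among 12705 tested genes by its mean level in the WT monosome and 27 at its lowest, in the KO low polysome. Hspa5 came next in each group, from rank 251 in the WT low polysome to rank 20 in the KO high polysome. Hsph1 was the least abundant member in 5 of the 6 groups, and Hspe1 was in the KO high polysome, where it ranked 3042. The counts came from uniquely aligned reads, so reads shared with near-identical copies elsewhere in the genome would be missing, which was not measured here. Among copies named as pseudogenes of members, 4 of Hspd1 held 576 counts, or 1.59% of the Hspd1 count, 6 of Hspe1 held 0.342%, and 1 of Hspa9 held 12 counts.

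**Figure D1:**
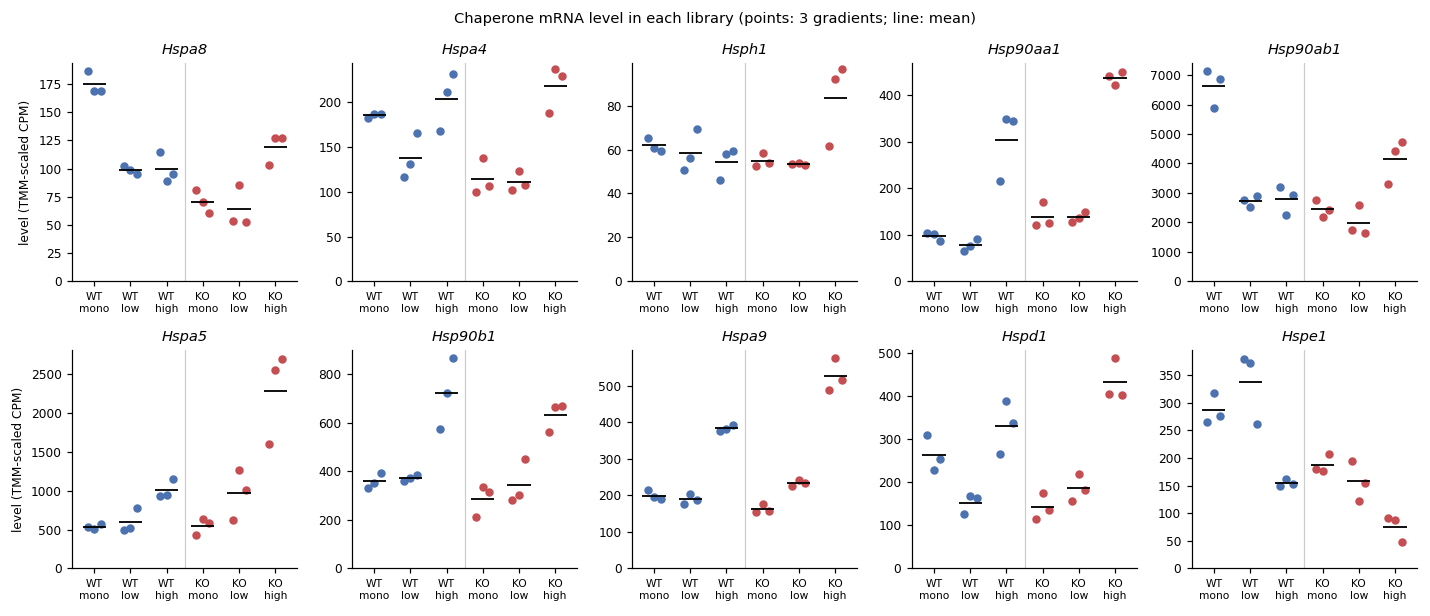
Level of each chaperone mRNA in TMM-scaled CPM (y axis from 0, own scale per gene) in the 18 libraries, grouped by genotype and fraction (x axis), with points for the 3 gradients of a group in order and a line at their mean. Hsp90ab1 fell between the WT monosome (5879 to 7133 CPM) and the KO monosome (2182 to 2768 CPM), while Hspa5 stood at 1607 to 2697 CPM in the KO high polysome against 930 to 1146 CPM in the WT high polysome.

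In Ddx6 KO cells most of these mRNAs had a higher level in the high polysome relative to the monosome than in WT cells. Translation level is defined here as the high polysome level over the monosome level, on the log2 scale, and the KO effect on it is the KO ratio less the WT ratio. Levels are relative to the total of each library, so the amount of RNA in a fraction is not measured. Translation level was higher in KO for 7 of the 10 members and lower for none (limma, adjusted p under 0.05), beside 10.7% of all 12705 tested genes higher and 7.09% lower. The median KO effect was 0.78 over the members and 0.022 over all tested genes. The 7 were Hsp90ab1, Hspa8, Hspd1, Hspa5, Hspa4, Hsph1 and Hspa9, with changes from 2.00 down to 0.75. Hsp90aa1, Hsp90b1 and Hspe1 did not pass the test. The same 7 had all 3 KO gradients above all 3 WT gradients, a separation that 21.2% of all tested genes showed.

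The count of 7 was 4 without WT gradient 1, without WT gradient 2 or without KO gradient 3. All tested genes were then higher in 4.94%, 4.96% and 3.73% of cases. The count was 6 without KO gradient 2, beside 6.89% of all genes higher. It was 7 without KO gradient 1, which leaves clone 2 alone, beside 11.9%. It was 4 with no filter on low counts, beside 3.57%. Once the trend of the change on coding length was removed, it was 3, beside 3.43%. Scaled by library size alone, 6 members were higher and 0 lower, beside 7.37% of all genes higher and 10.9% lower.

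**Figure D2:**
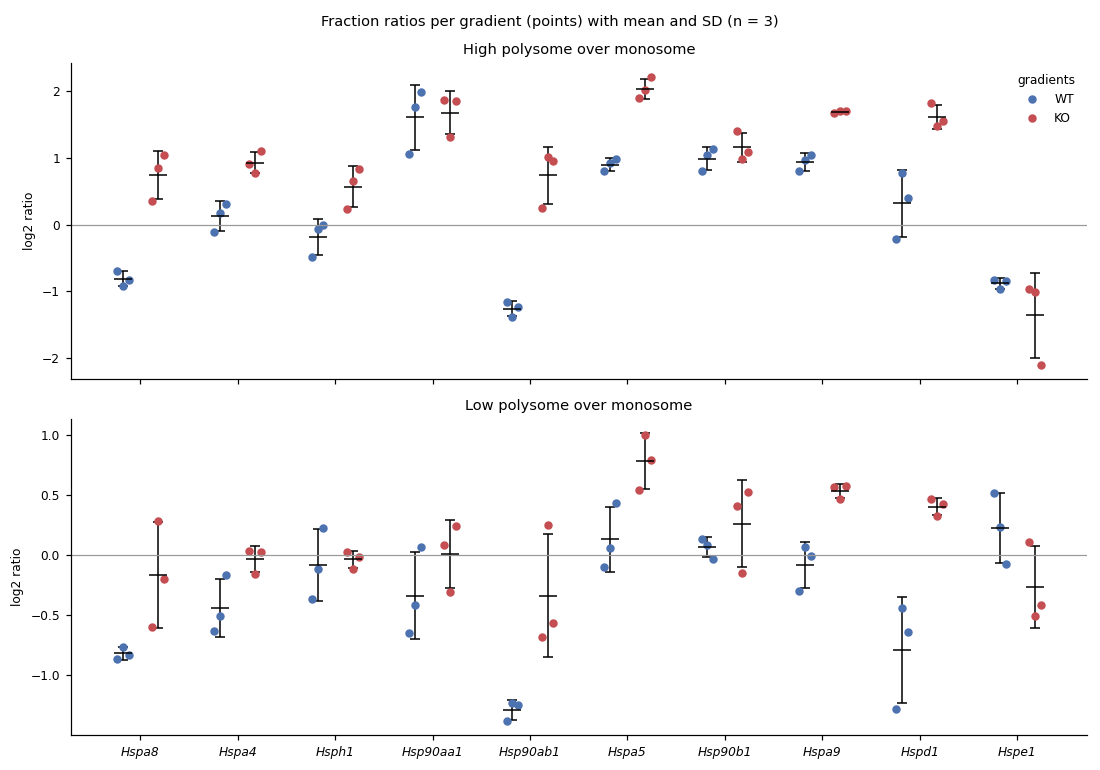
Log2 ratio of the high polysome (upper panel) or low polysome (lower panel) to the monosome for each chaperone mRNA, with a point for each gradient and the mean and SD of 3 gradients, WT and KO side by side. In the upper panel the KO gradients lie above the WT gradients for 7 of 10 genes and overlap them for Hsp90aa1, Hsp90b1 and Hspe1.

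Of the cytosolic HSP70 system, Hspa8 encodes the constitutive HSP70 that folds new proteins and uncoats clathrin vesicles. The Hspa8 level was 187, 169 and 169 CPM in the WT monosome of gradients 1 to 3 and 81.1, 70.1 and 60.8 CPM in the KO monosome. High polysome levels were 115, 89 and 95.2 CPM in WT and 103, 127 and 127 CPM in KO. The monosome groups were far apart, and the high polysome groups overlapped. The log2 ratio of high polysome to monosome was -0.81 ± 0.11 (SD, n = 3) in WT and 0.75 ± 0.36 in KO, on opposite sides of 0. KO gradient 1, of clone 1, was at 0.35, and gradients 2 and 3, of clone 2, at 0.85 and 1.05. The KO effect was 1.57 (SE 0.23, limma adjusted p = 0.000238). It lay between 1.40 and 1.77 with any 1 gradient left out.

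Hspa4 and Hsph1 encode HSP110-type proteins, distant HSP70 relatives that act as exchange factors for HSP70. The Hspa4 level was 182, 187 and 187 CPM in the WT monosome and 99.8, 138 and 106 CPM in the KO monosome. For the high polysome the values were 168, 211 and 232 CPM in WT and 188, 237 and 229 CPM in KO, so that the groups separated in the monosome and not in the high polysome. The Hsph1 level was 65.3, 60.9 and 59.5 CPM in the WT monosome against 52.4, 58.6 and 53.9 CPM in the KO monosome. It was 46.2, 58.2 and 59.3 CPM in the WT high polysome against 61.6, 92.4 and 96.9 CPM in the KO high polysome, so its groups lay close together in the monosome and further apart in the high polysome. Both genes had nearly equal KO effects, 0.81 (SE 0.22, limma adjusted p = 0.0151) for Hspa4 and 0.76 (SE 0.23, adjusted p = 0.0285) for Hsph1. The change of Hspa4 fell to 0.61 without WT gradient 1 (adjusted p = 0.0928) and to 0.70 without KO gradient 3 (0.115), and was 0.83 without WT gradient 2 (0.0616). That of Hsph1 was 0.53 without WT gradient 1 (0.178), 0.82 without WT gradient 2 (0.0828), 0.72 without KO gradient 2 (0.083) and 0.60 without KO gradient 3 (0.178).

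Of the cytosolic HSP90 genes, Hsp90ab1 encodes the constitutive HSP90 beta and Hsp90aa1 the HSP90 alpha that rises with stress. The Hsp90ab1 level was 7133, 5879 and 6875 CPM in the WT monosome and 2768, 2182 and 2435 CPM in the KO monosome. The WT high polysome held 3188, 2266 and 2913 CPM and the KO high polysome 3301, 4419 and 4739 CPM. Both fractions separated the genotypes, in opposite directions. The log2 ratio went from -1.26 ± 0.11 (SD, n = 3) in WT to 0.74 ± 0.43 in KO. KO gradient 1, of clone 1, was at 0.25, and gradients 2 and 3, of clone 2, at 1.02 and 0.96. With 1 gradient of clone 1, clone and gradient cannot be told apart. The KO effect of 2.00 (SE 0.24, limma adjusted p = 4.93e-05), or 4.01-fold, was the largest of the 10 genes. It lay between 1.87 and 2.25 with any 1 gradient left out.

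The Hsp90aa1 level was 103, 102 and 86.2 CPM in the WT monosome and 120, 170 and 125 CPM in the KO monosome. High polysome levels were 215, 349 and 345 CPM in WT and 442, 421 and 450 CPM in KO, so KO was above WT in both fractions. Its log2 ratio was already high in WT, 1.61 ± 0.49 (SD, n = 3), and was 1.68 ± 0.32 in KO. This gave a KO effect of 0.057, with a 95% confidence interval of -0.45 to 0.57 that leaves room for a change of either sign. Its sign turned without WT gradient 1 (-0.29), without KO gradient 1 (-0.043) and without KO gradient 3 (-0.047).

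Of the ER pair, Hspa5 encodes BiP, the ER HSP70, which also holds the sensors of the unfolded protein response inactive. The Hspa5 level in the monosome was 534, 502 and 577 CPM in WT and 429, 632 and 584 CPM in KO, and these ranges overlapped. For the high polysome the values were 930, 950 and 1146 CPM in WT and 1607, 2559 and 2697 CPM in KO, where the 3 KO gradients stood above all WT gradients. The log2 ratio was 0.90 ± 0.096 (SD, n = 3) in WT and 2.04 ± 0.15 in KO, the highest KO ratio of the members. The KO effect was 1.14 (SE 0.32, limma adjusted p = 0.0201). It was 1.01 without WT gradient 1 (adjusted p = 0.0959), 1.15 without WT gradient 2 (0.0763) and 1.04 without KO gradient 3 (0.0978).

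Hsp90b1 encodes GRP94, the ER HSP90, which folds integrins and Toll-like receptors. The Hsp90b1 level was 330, 352 and 394 CPM in the WT monosome and 211, 336 and 314 CPM in the KO monosome. The WT high polysome held 575, 723 and 865 CPM and the KO high polysome 563, 665 and 670 CPM, and the groups overlapped in both fractions. The log2 ratio was 0.99 ± 0.17 (SD, n = 3) in WT and 1.16 ± 0.22 in KO. This gave a KO effect of 0.17, with a 95% confidence interval of -0.36 to 0.71, and -0.00011 without WT gradient 1. The promoter windows of both ER genes hold the ER stress element printed above, and of the 2 genes Hspa5 passed the test. The difference between their KO effects was not tested. Their ratio within libraries was compared between genotypes in each fraction, given below.

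Of the mitochondrial genes, Hspa9 encodes mortalin, the matrix HSP70 that pulls imported proteins through the inner membrane. The Hspa9 level was 215, 194 and 189 CPM in the WT monosome and 153, 176 and 158 CPM in the KO monosome. High polysome levels were 376, 381 and 393 CPM in WT and 487, 576 and 516 CPM in KO, and the genotypes did not overlap in either fraction. Its log2 ratio had the smallest spread of all members in KO, 1.69 ± 0.019 (SD, n = 3), against 0.94 ± 0.13 in WT. The KO effect was 0.75 (SE 0.15, limma adjusted p = 0.00287) and lay between 0.60 and 0.80 with any 1 gradient left out.

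Hspd1 and Hspe1 encode HSP60 and HSP10, the barrel and the lid of the mitochondrial chaperonin. The Hspd1 level was 308, 227 and 254 CPM in the WT monosome and 114, 175 and 135 CPM in the KO monosome. For the high polysome the values were 266, 387 and 336 CPM in WT and 404, 487 and 402 CPM in KO, so KO was below WT in the one fraction and above it in the other. The log2 ratio was 0.32 ± 0.50 (SD, n = 3) in WT, where gradient 1 was at -0.21 and gradient 2 at 0.77. It was 1.62 ± 0.18 in KO, where gradient 1, of clone 1, was the highest at 1.82. This gave a KO effect of 1.30 (SE 0.25, limma adjusted p = 0.00203), which lay between 0.96 and 1.53 with any 1 gradient left out.

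The Hspe1 level was 266, 318 and 277 CPM in the WT monosome and 180, 176 and 208 CPM in the KO monosome. The WT high polysome held 150, 162 and 153 CPM and the KO high polysome 91.9, 86.9 and 47.9 CPM, and KO was below WT throughout. Hspe1 had the only negative log2 ratio in KO, -1.36 ± 0.64 (SD, n = 3) against -0.88 ± 0.076 in WT, with KO gradient 3 at -2.10 and the other two at -0.97 and -1.01. The KO effect of -0.48 had a 95% confidence interval of -1.08 to 0.11.

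The members lay on both sides of the gradient in WT, in shares near those of all tested genes. All but Hspe1 lay on the high polysome side in KO. In WT cells 4 had a higher level in the high polysome than the monosome, Hsp90aa1, Hsp90b1, Hspa9 and Hspa5, and 3 were lower, Hsp90ab1, Hspe1 and Hspa8, beside 28.9% of all tested genes higher and 32.2% lower. In KO cells 9 were higher and 1, Hspe1, was lower, beside 35% and 33.6%. The WT order of the log2 ratio ran from Hsp90aa1 at 1.61 through Hsp90b1 at 0.99, Hspa9 at 0.94 and Hspa5 at 0.90, which do not differ beyond their spread, to Hsp90ab1 at -1.26. Without WT gradient 1, Hspd1 was also higher in WT, by 0.64 (limma adjusted p = 0.00846). Without KO gradient 3, Hsph1 was not called in KO, at 0.46 (adjusted p = 0.0556).

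For the low polysome over the monosome fewer members were called. The KO effect was higher for 3 members, Hspd1, Hsp90ab1 and Hspa9, and lower for none, beside 2.31% of all tested genes higher and 2.39% lower (limma). Scaled by library size alone, 2 members were higher and 0 lower, beside 1.8% and 3.89%. The log2 ratio of Hspd1 was -1.28, -0.44 and -0.64 in WT gradients 1 to 3 and 0.46, 0.32 and 0.42 in the 3 KO gradients, a KO effect of 1.19 (SE 0.25, adjusted p = 0.0127). That of Hsp90ab1 was -1.38, -1.23 and -1.25 in WT and -0.68, 0.25 and -0.57 in KO, a KO effect of 0.95 (SE 0.24, adjusted p = 0.0301). That of Hspa9 was -0.30, 0.065 and -0.0077 in WT and 0.56, 0.46 and 0.57 in KO, a KO effect of 0.61 (SE 0.15, adjusted p = 0.0294). In all of these the KO gradients lay above the WT gradients, as they did for 6 of the 10 members and 12.8% of all tested genes. With the gradient as a replicate block, Hspa5 was called too, at 0.65 (adjusted p = 0.0381). The count of 3 was 0 without WT gradient 1 or without KO gradient 3, beside 0.296% and 0.182% of all tested genes higher. It was 1 if WT gradient 2, WT gradient 3 or KO gradient 2 was omitted, beside 0.376%, 1.34% and 1.02%. Without KO gradient 1 it was 4, beside 3.85%, when Hspa8 was called at 0.85 (adjusted p = 0.0429). The calls of Hsp90ab1 and Hspa9 were each lost in 5 of these fits, and that of Hspd1 in 2. Hspa9 also missed the threshold by library size alone (limma adjusted p = 0.0509), with no filter on low counts (0.0652) and with only the groups compared (0.0643). With the coding length trend removed the count was 0, beside 0.621%. Hspd1 was then at 1.01 (adjusted p = 0.0576), Hsp90ab1 at 0.77 (0.118) and Hspa9 at 0.43 (0.167).

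Levels were also compared between genotypes within each fraction. In the monosome 6 members were lower in KO and 1, Hsp90aa1, was higher, beside 20.1% of all tested genes lower and 18.6% higher (limma). The falls were -1.43 for Hsp90ab1 (adjusted p = 1.89e-06), -1.31 for Hspa8 (3.13e-06), -0.90 for Hspd1 (0.000475), -0.71 for Hspa4 (0.00135), -0.61 for Hspe1 (0.02) and -0.29 for Hspa9 (0.0386). The call of Hspa9 was lost without WT gradient 1 (-0.23), WT gradient 2 (-0.32), WT gradient 3 (-0.34), KO gradient 1 (-0.25) or KO gradient 3 (-0.28), and that of Hspe1 without WT gradient 2 (-0.54). Hsp90aa1 was higher by 0.51 (adjusted p = 0.0318), and this call was lost without WT gradient 2 (0.54), WT gradient 3 (0.41), KO gradient 2 (0.35) or KO gradient 3 (0.57).

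In the high polysome 5 members were higher in KO and 1 was lower, beside 25.3% of all tested genes higher and 21.1% lower (limma). Hspa5 rose by 1.15 (SE 0.23, adjusted p = 0.000327), or 2.22-fold, followed by Hsph1 at 0.59, Hsp90ab1 at 0.57, Hsp90aa1 at 0.56 and Hspa9 at 0.45. Hspe1 fell by 1.10 (SE 0.20, adjusted p = 0.000192). The count of 5 was 3 without WT gradient 1, where Hsph1 (0.41) and Hsp90aa1 (0.26) missed the threshold, and 3 without KO gradient 3, where Hsph1 (0.45) and Hsp90ab1 (0.45) did. Without WT gradient 2, Hsp90ab1 missed it (0.42) and Hspd1 passed it (0.52).

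In the low polysome 3 members were higher in KO, Hsp90aa1 by 0.84, Hspa5 by 0.66 and Hspa9 by 0.31, and 3 were lower, Hspe1 by 1.11, Hspa8 by 0.67 and Hsp90ab1 by 0.48, all on the log2 scale. All tested genes were higher in 23.4% and lower in 24.3% of cases, near the 30% of members in each direction. The calls of Hspa5 and Hspa9 were lost without WT gradient 1 (0.54 and 0.26), KO gradient 2 (0.45 and 0.29) or KO gradient 3 (0.57 and 0.28), that of Hspa5 also without WT gradient 2 (0.56) and that of Hspa9 without WT gradient 3 (0.31). That of Hsp90ab1 was lost without WT gradient 1 (-0.47), WT gradient 3 (-0.44), KO gradient 1 (-0.39) or KO gradient 3 (-0.39). Without WT gradient 1, Hspa4 was called lower (-0.41).

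Averaged over the 3 fractions of a gradient, 2 members were higher in KO and 4 were lower, beside 28.3% of all tested genes higher and 28.4% lower (limma). For 10 members these counts are near the shares over all genes. Hsp90aa1 was higher by 0.63 (SE 0.1, adjusted p = 0.000151) and Hspa5 by 0.61 (SE 0.16, adjusted p = 0.0068). Hspe1 was lower, at -0.94 (SE 0.11, adjusted p = 1e-05), with Hspa8 at -0.57, Hsp90ab1 at -0.45 and Hspa4 at -0.30. The call of Hspa4 was lost without WT gradient 2 (-0.31), WT gradient 3 (-0.23), KO gradient 1 (-0.21) or KO gradient 3 (-0.31), and Hsp90b1 was called without KO gradient 3 (-0.35). This mean weights the fractions equally and is not the level in total RNA, which was not analysed here. Fewer cells of a type and less RNA per cell cannot be told apart in these samples.

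Members that work together were also compared as ratios of their counts within a library, which no scaling of the library can alter. These pairs were chosen after the values above were seen, and 9 comparisons were made. With 3 gradients against 3, the smallest p an exact two-sided permutation test allows is 0.1, so no pair could pass 0.05. The ratio of Hsp90ab1 to Hsp90aa1 was 69.4, 57.6 and 79.8 in the WT monosome and 23, 12.8 and 19.6 in the KO monosome. In the high polysome it was 14.8, 6.48 and 8.45 in WT and 7.46, 10.5 and 10.5 in KO. The low polysome ratio was 42.1, 32.9 and 32 in WT and 13.6, 18.8 and 11.1 in KO. The HSP90 ratio thus separated the genotypes in monosome and low polysome libraries alike (exact permutation p = 0.1 in each, Benjamini-Hochberg adjusted over the 9 comparisons 0.129) and overlapped in the high polysome (p = 1).

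The ratio of Hspd1 to Hspe1 was 1.16, 0.714 and 0.918 in the WT monosome and 0.631, 0.994 and 0.653 in the KO monosome, with the groups overlapping. In the high polysome it was 1.78, 2.39 and 2.19 in WT and 4.4, 5.61 and 8.39 in KO, a 2.81-fold difference with no overlap (exact permutation p = 0.1, adjusted 0.129). The 2 genes have overlapping promoter windows and differ in coding length, 1722 nt against 309 nt. Whether either bears on this ratio was not tested. The ratio of Hspa5 to Hsp90b1 was 1.62, 1.31 and 1.32 in the WT high polysome and 2.86, 3.85 and 4.02 in the KO high polysome, and it was above WT in all KO gradients of the other two fractions too. The difference was 1.28-fold in the monosome, 1.75-fold in the low polysome and 2.5-fold in the high polysome (exact permutation p = 0.1 in each, adjusted 0.129).

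**Figure D3:**
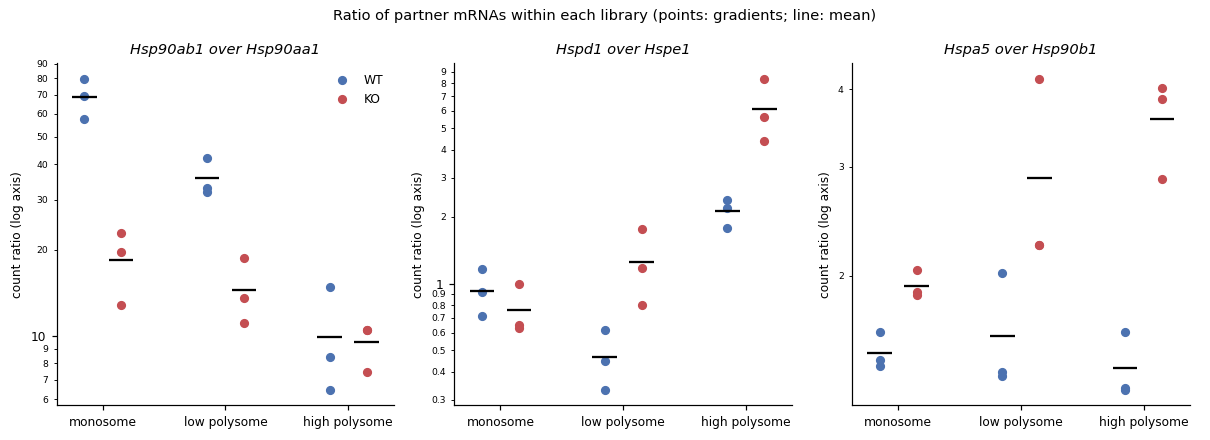
Ratio of the counts of 2 partner mRNAs within each library (log y axis) by fraction, with a point for each gradient and a line at the mean of 3. Hsp90ab1 over Hsp90aa1 separates the genotypes in the monosome and the low polysome and not in the high polysome, Hspd1 over Hspe1 does so in both polysome fractions, and Hspa5 over Hsp90b1 is higher in KO in each fraction.

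Coding length moved with the KO effect across all genes. The median KO effect on high polysome over monosome rose from -0.54 over 1008 genes with a coding length of up to 500 nt to 0.22 over 1799 genes of 1500 to 2000 nt, 0.35 over 1133 genes of 2000 to 2500 nt and 0.56 over 1618 genes of more than 3000 nt. The coding lengths of 9 members are 1722 to 2577 nt, longer than the median of 1374 nt over tested genes, and Hspe1 is among the 2.09% of genes with 309 nt or less. Hspe1 lay close to the median of its length class. Hsp90aa1 and Hsp90b1 lay below the median of theirs, within its quartiles of -0.043 and 0.72. With the trend over all genes removed, Hsp90ab1 kept a KO effect of 1.67 (limma adjusted p = 0.000371), Hspa8 of 1.29 (0.00225) and Hspd1 of 1.08 (0.0149), beside 3.43% of genes called higher. Hspa5 was then at 0.85 (0.124), Hspa9 at 0.44 (0.0859), Hspa4 at 0.42 (0.258) and Hsph1 at 0.36 (0.362), and Hspe1, Hsp90aa1 and Hsp90b1 changed sign to 0.055, -0.28 and -0.20.

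**Figure D4:**
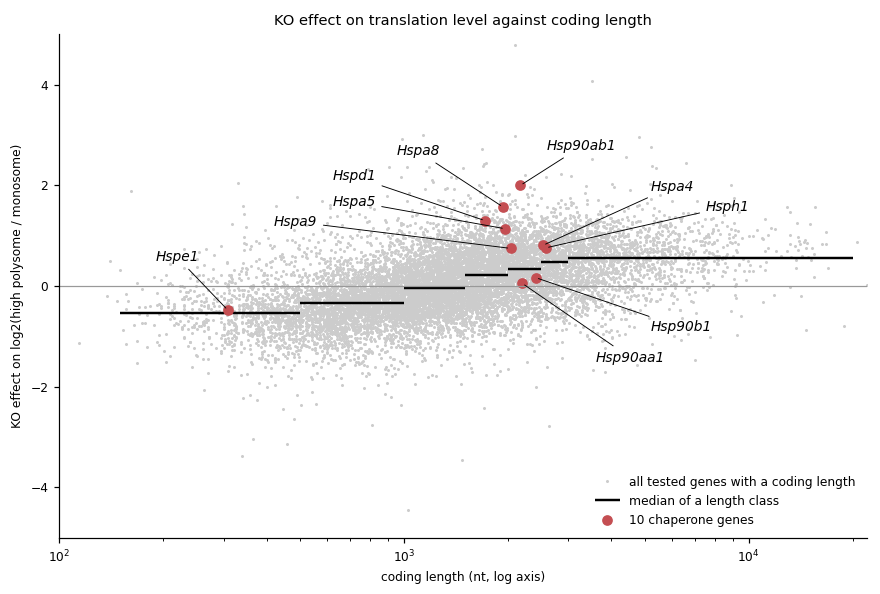
KO effect on log2(high polysome over monosome) (y axis) against coding length in nt (log x axis) for the 11759 tested genes with a coding length, with the median of each length class as a line and the 10 chaperone genes as labelled points. Hsp90ab1, Hspa8, Hspd1 and Hspa5 stand above the medians of their length classes by the most, and Hspe1 lies at the left, close to its class median of -0.54.

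The other genes of the chaperone network were described by lists of partners, also chosen with earlier results of these data known. The genes named from them had limma adjusted p from 0.000238 to 0.0451. All list counts of this KO effect are to be read beside 10.7% of all tested genes higher and 7.09% lower. Of 8 tested genes among other HSP70 and HSP90 family genes, 1 had a higher KO effect on high polysome over monosome and none a lower one. This was Hyou1, the large ER HSP70, at 0.93 (SE 0.24, limma adjusted p = 0.0129). The list median was 0.71.

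Of 35 tested J-domain proteins, 3 (8.57%) were higher and 4 (11.4%) lower, near the shares over all genes, with a median of -0.30. The higher ones were Dnajc13 at 1.09, an endosomal protein, Dnajc1 at 0.83, of the ER membrane, and Dnajc16 at 0.81. The largest falls were those of Dnajc24 at -1.35, a diphthamide synthesis factor, Dnajc15 at -1.11, of the mitochondrial inner membrane, and Dnajc9 at -0.66, a histone chaperone. Of 12 HSP70 exchange factors and partners, 3 were higher and 2 lower, with a median of -0.06. Bag6, which guards membrane proteins before insertion, was at 1.33, Bag3, of chaperone-assisted autophagy, at 1.21, and St13, the HSP70-interacting protein Hip, at 0.62. Bag1, an exchange factor, was at -0.88 and Grpel1, the exchange factor of Hspa9, at -0.60.

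Of 17 HSP90 co-chaperones, 2 were higher, the myosin chaperone Unc45a at 1.04 and the kinase adaptor Cdc37 at 0.65, and 1 was lower, Ptges3 (p23) at -0.73. Of 18 ER folding enzymes and lectins, none was higher and 3 were lower, Sdf2l1 at -0.88, Cnpy2 at -0.86 and Manf at -0.86, and the median was -0.14. Of 9 unfolded protein response regulators, none was higher and 1 was lower, Mbtps1 at -0.51, the protease that activates ATF6. None of 5 heat shock factors and small HSPs was called. Of 7 tested genes of mitochondrial protein import and quality control, 1 was higher, the matrix protease Lonp1 at 0.69. Of the 8 CCT chaperonin subunits, which form the cytosolic chamber for actin and tubulin, 6 were higher and none lower, with a median of 0.72, led by Cct2 at 1.15, Cct4 at 1.06 and Tcp1 at 0.88.

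Levels over all fractions were tested as well, beside 28.3% of all tested genes higher and 28.4% lower. Of 18 ER folding enzymes and lectins, 11 were higher in KO and 2 lower, and of 9 unfolded protein response regulators 6 were higher and 2 lower. Of the ER members Hspa5 was higher by 0.61 and Hsp90b1 was at -0.22, not called (limma adjusted p = 0.14). Of the CCT subunits 1 was higher and 5 lower, and in the monosome 7 of 8 were lower, as were 6 of the 10 members, beside 20.1% of all tested genes.

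**Figure D5:**
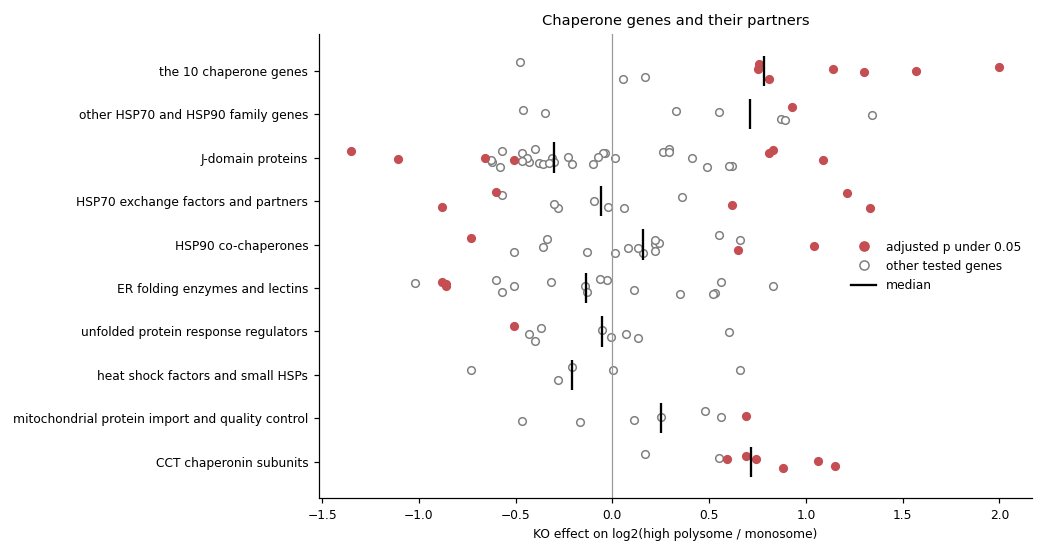
KO effect on log2(high polysome over monosome) (x axis) of each tested gene in the chaperone lists (rows), filled where the limma adjusted p is under 0.05, with a line at the median of the list; vertical scatter within a row carries no value. The medians of the 10 chaperone genes (0.78), of their other family genes (0.71) and of the CCT subunits (0.72) stand to the right of 0, and that of the ER folding enzymes and lectins is at -0.14.

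Across the 18 libraries, which come from 6 gradients and so are not independent, the members did not form one pattern. Pearson's r of log2 CPM between pairs of members ran from -0.896 to 0.949, was positive in 37 of 45 pairs and had a median of 0.504. Hspa8 was closest to Hsp90ab1 (0.949), Hsp90aa1 to Hspa9 (0.903), Hspa5 to Hspa9 (0.894) and Hspa4 to Hspd1 (0.89). Hspe1 had no like member, with 0.0849 to Hspa8 as its highest value. Among tested genes outside the members, the most similar were Slc1a5 for Hsp90ab1 (0.979), Sesn2 for Hspa8 (0.941), Prc1 for Hspa4 (0.962) and Kif1bp for Hsp90aa1 (0.973). They were Nomo1 for Hspa5 (0.974), Dars for Hsp90b1 (0.954), Pdha1 for Hspd1 (0.953) and Gpr137b for Hspe1 (0.963). These values describe likeness over shared libraries and carry no test.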

How the data were processed

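The authors made libraries with the QuantSeq 3′ FWD kit, whose reads come from transcript 3′ ends, and counts need no division by length. Per the submitters' processing notes and the file headers, the tools included cutadapt 1.14, STAR 2.5.3a and featureCounts 1.5.3, counting unique alignments by strand on a Gencode M14 annotation. The deposited values are raw counts per gene. No molecular identifiers are mentioned, so PCR copies remain.

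Symbols, coding lengths and UTRs came from Gencode M21 (same GRCm38 assembly), which matched 51274 of the identifiers. The 10 members, gene lists and tests were chosen with earlier results of these data known. Genes with at least 3 CPM in at least 3 libraries (12705) were scaled by TMM (edgeR 4.0.16) and fitted with limma 3.58.1 (voom, 6 group means over 18 libraries, R 4.3.3), with Benjamini-Hochberg adjustment over all genes tested. Levels over all fractions were tested by limma on gradient means, 3 against 3. Single-gradient ratios used a pseudocount of 0.5 CPM. Named genes were the members, Ddx6, the closest gene to each member (not reported here for 2 of them), pseudogenes named after members and, from each list, up to 3 called rises and 3 called falls. The scripts were tested on simulated data.

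Fractions of one gradient came from one lysate, so the gradient pairs them by design. The correlations of their deviations from the group means were -0.181 to 0.485.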

Additional observations from a re-analysis of the deposited data

Results flagged for a closer look

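These results are listed because the change between fractions differed between WT and KO gradients in a test of the difference itself, the interaction term in limma. For the high polysome over the monosome, the KO effect on the log2 scale was 2.00 for Hsp90ab1, 1.57 for Hspa8, 1.30 for Hspd1, 1.14 for Hspa5, 0.81 for Hspa4, 0.76 for Hsph1 and 0.75 for Hspa9. For the low polysome over the monosome it was 1.19 for Hspd1, 0.95 for Hsp90ab1 and 0.61 for Hspa9. For Hsp90ab1 and Hspa8 the high polysome over monosome ratio changed sign between the genotypes. With the coding length trend removed, 3 of the 7 high polysome calls held. None of the 3 low polysome calls did, at 1.01 for Hspd1 (adjusted p = 0.0576), 0.77 for Hsp90ab1 (0.118) and 0.43 for Hspa9 (0.167). In the fits with 1 gradient left out, the low polysome calls of Hsp90ab1 and Hspa9 were each lost in 5 and that of Hspd1 in 2. Among the high polysome calls, that of Hsph1 was lost in 4 and those of Hspa4 and Hspa5 in 3 each.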

How the results depend on the processing

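The count of 7 members higher for high polysome over monosome was 4 with no filter on low counts and 3 with the coding length trend removed. All tested genes were then higher in 3.57% and 3.43% of cases. With 1 gradient left out it was 4 to 7, beside 3.73% to 11.9% of all tested genes. The count of 3 for low polysome over monosome was 0 with the length trend removed (Hspd1 1.01, Hsp90ab1 0.77, Hspa9 0.43), beside 0.621%. With 1 gradient left out it was 0 to 4, beside 0.182% to 3.85%. The 1 lower in KO high polysome over monosome became 0 with the length trend removed. In KO against WT, members higher were 0 to 1 in the monosome, 1 to 3 in the low polysome and 3 to 5 in the high polysome with 1 gradient left out, and 1 in the low polysome with only the groups compared. The high polysome KO effect of Hsp90aa1 became -0.067 by library size alone, -0.071 with no filter, -0.037 in DESeq2 and -0.28 with the length trend removed, which turned Hsp90b1 to -0.20 and Hspe1 to 0.055; without WT gradient 1 they were -0.29 for Hsp90aa1 and -0.00011 for Hsp90b1. The low polysome KO effect of Hsph1 became -0.025 by library size alone, -0.01 with no filter, -0.11 with the length trend removed and -0.10 without WT gradient 1, and that of Hspe1 became 0.057 with the length trend removed. Removing that trend also turned the called falls of Hspe1 in high polysome over monosome to 0.11 in WT and 0.17 in KO, and without WT gradient 1 Hsph1 was at 0.019 in WT. Hspa5 in the monosome became -0.0073 with DESeq2 size factors and -0.099 to 0.18 with 1 gradient left out, Hspa4 in the high polysome -0.1 without WT gradient 1, and Hspd1 over all fractions 0.031 without KO gradient 1. With 1 gradient left out, the high polysome KO effect reached 0.26 for Hsp90aa1 and for Hsp90b1, the low polysome KO effect of Hsph1 reached 0.20 and Hspa4 in the high polysome 0.21. The cause was not tested. The gradient as a replicate block changed 1 member call between fractions, that of Hspa5 given in the report. WT and KO gradients of one number share only the number (r -0.509 to 0.254); this replicate block added Hsp90b1 in the monosome (-0.34) and over all fractions (-0.22) and Hspd1 in the high polysome (0.40). A pseudocount of 2 CPM moved none of 40 mean ratios by more than their SD. With no member level under 46.2 CPM, it could move them little. WT monosome libraries were the shallowest.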
